A study of Saccharomyces cerevisiae with 15 samples.

Results

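Gene expression in yeast that carried the dominant mutant gcn5-F221A at the middle of 3 promoter strengths was compared with expression in yeast that had no GCN5. The comparison took 3 arrays of gcn5-F221A 0.68 and 3 arrays of gcn5 null, 6 of the 15 arrays of the series, and covered all 5449 genes of Saccharomyces cerevisiae that could be named on the array. It asks how a cell that makes an enzymatically inactive Gcn5p on top of its own differs from a cell with none. The gcn5-F221A 0.68 strain was haploid MATα S288C with its chromosomal GCN5 in place. The mutant allele sat on a centromeric p416 plasmid with G418 resistance, behind a TEF promoter variant (TEF11) rated at 0.68 of the unmodified TEF promoter. The gcn5 null strain was the same MATα S288C with a hygromycin B resistance gene in place of GCN5, and it carried the matching plasmid without an insert. Minimal medium for both held nitrogen base at 6.7 g/L, glucose at 20 g/L and G418 at 200 µg/mL, and growth ran from an optical density of 0.0045 to a harvest at 0.4 to 0.5. Whether the triplicate cultures came from 1 or several transformants is not given in the sources used here. The other strains, 3 arrays each, were wild-type with the same empty plasmid and gcn5-F221A at promoter strengths of 0.32 and 0.95.

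Gcn5p is the histone acetyltransferase of the SAGA and ADA complexes, which are brought to promoters by activators and acetylate the tails of histone H3. SAGA also holds parts that contact the TATA-binding protein, remove ubiquitin from H2B and bind activators, and Gcn5p has a bromodomain that binds acetylated lysine. A deletion removes the enzyme and the protein together, whereas F221A leaves a full-length protein in which 1 phenylalanine has been exchanged for alanine. Genes long used to study SAGA include HO, the galactose genes and the acid phosphatase genes of the phosphate regulon.

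The allele was made by site-directed mutagenesis with a synthetic oligo. It is printed because it defines the protein that separates the strains, in lower case with the new alanine codon in capitals. The study's list of oligos does not say which change each one makes. This one was assigned from its reading frame and the known order of residues around that position of Gcn5p, and the codon fills bases 25 to 27 of its 49.
F221A oligo: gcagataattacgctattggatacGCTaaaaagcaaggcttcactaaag

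The signals are RMA values on the log2 scale, so a difference of 1 is a 2-fold change. All 15 array medians over the whole chip lay between 6.0 and 6.07. The gcn5-F221A 0.68 cultures were the most variable of the series, with a mean SD per gene of 0.229 on the log2 scale against 0.096 in gcn5 null. Correlations between replicate arrays were 0.977 to 0.988 at 0.68, compared with 0.996 to 0.998 in the null strain. Replicate 1 at 0.68 differed from the mean of the other two by over 2-fold for 143 genes, replicate 2 for 139 and replicate 3 for 27, whereas no null array did so for more than 1 gene. In the growth and stress genes it was replicate 1 that stood apart, and those groups are given array by array. As a measure of RNA integrity, 5′ probe sets of 8 control genes minus their 3′ probe sets averaged -2.69, -3.47 and -2.66 in the 0.68 arrays. The null arrays gave -2.67, -2.91 and -3.11, and the wild-type arrays -3.67, -3.40 and -3.24. How this measure bears on the differences between arrays or strains was not tested.

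Of the 5449 genes, 881 (16.2%) differed between gcn5-F221A 0.68 and gcn5 null at an adjusted p under 0.05 (limma, Benjamini-Hochberg over all genes). Of these, 523 (9.6% of all genes) were higher and 358 (6.57%) were lower at 0.68. The change was over 2-fold for 139 genes (2.55%), 92 of them higher (1.69%) and 47 lower (0.863%). The 3 arrays of one strain lay entirely above or below the 3 of the other for 1821 genes (33.4%), with 0.68 above for 967 (17.7%) and below for 854 (15.7%). All but 11 of the called genes were among them, and every called gene named in the text is one of these. The count rested on the spread shared by all 5 strains: a fit on the 6 arrays alone called 482 genes. Leaving out gcn5 null replicate 1 called 566 genes (346 higher, 220 lower), leaving out null replicate 2 called 565 (359 higher, 206 lower) and leaving out null replicate 3 called 593 (335 higher, 258 lower). The split between directions followed the scaling. Of the calls, 59.4% were higher at 0.68 in the deposited values, 45.6% after each array was centred on its median S. cerevisiae gene and 52.3% after quantile normalization over S. cerevisiae probe sets, shifts that moved the median difference of all genes from 0.00 to -0.05 and -0.02. Counts of called genes in the lists that follow are to be read beside these 9.6% higher and 6.57% lower. Arrays of bulk RNA cannot tell fewer expressing cells from less RNA per cell.

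**Figure D1:**
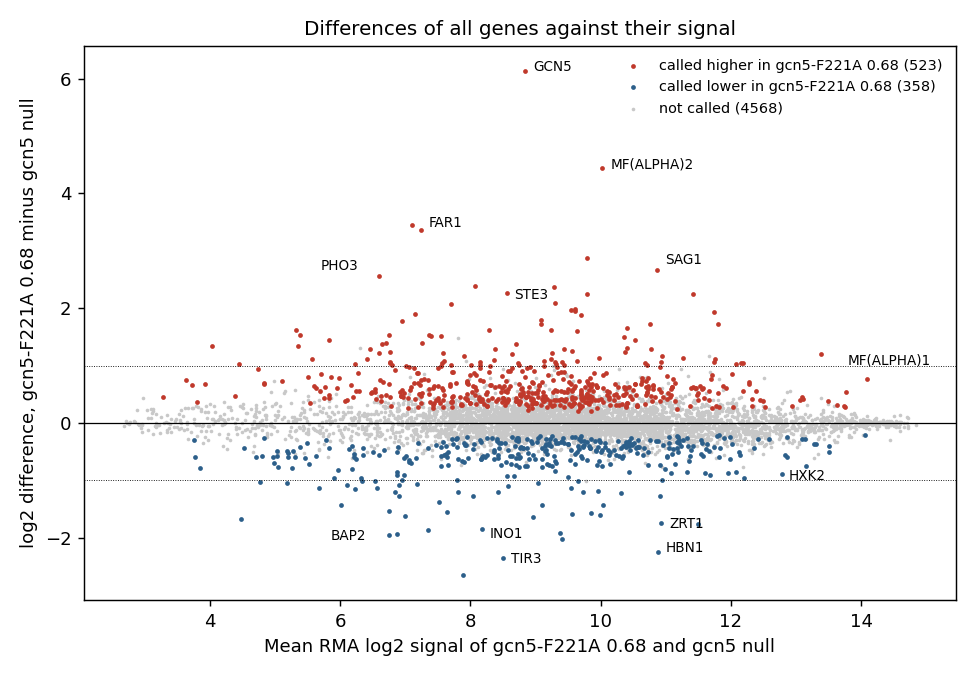
Log2 difference of each of 5449 genes, gcn5-F221A 0.68 minus gcn5 null, against the mean RMA log2 signal of both strains. Red points are the 523 genes called higher and blue points the 358 called lower, dotted lines mark 2-fold, and GCN5 and MF(ALPHA)2 stand farthest from 0.

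Wild-type gives each difference its place, although both comparisons with it share its 3 arrays. Against wild-type, 675 genes (12.4%) were called at 0.68 and 2232 (41%) in gcn5 null. Of the 523 genes higher at 0.68 than in the null strain, 362 were called lower in the null strain and not called at 0.68 against wild-type. A further 69 were called lower than wild-type in both strains. Of the 358 lower genes, 270 were called higher than wild-type in the null strain and not at 0.68, and 43 were called higher in both. The strains were called on opposite sides of wild-type in 9 genes with 0.68 up and the null strain down, and in 3 the other way. In these pairs of calls the null strain was more often the one past the test, but the spread at 0.68 was larger, and a gene that was not called against wild-type at 0.68 has not been shown to be at the wild-type level.

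GCN5 itself checked the labels. Its probe set read 12.07, 11.88 and 11.76 in the 3 arrays of gcn5-F221A 0.68, against 5.73, 5.83 and 5.76 in gcn5 null, with a wild-type mean of 8.92. The difference of 6.13 (95% interval 5.95 to 6.31) is a 70.0-fold change, adjusted p 1.4e-14. The probe set does not tell mutant from native transcript, so the 0.68 signal is the sum of both. The null arrays lay near the background of the chip, where the 95th percentile of the S. pombe probe sets, which this RNA is not meant to bind, was 5.18. The other 20 measured subunits of SAGA and ADA had a median difference of -0.01, against 0.00 for all genes. TRA1, the large subunit that activators contact, was the one called (difference 0.32, limma adjusted p 0.0063). It read 10.43, 10.44 and 10.33 in the 0.68 strain and 10.03, 10.11 and 10.10 in the null strain. A limma fit on the 6 arrays alone did not call TRA1 (adjusted p 0.053). None of the 10 measured histone genes was called by limma, nor did any reach an unadjusted p under 0.05.

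Mating genes were higher in all 3 cultures of gcn5-F221A 0.68, and among them was MF(ALPHA)2, the largest difference after GCN5. All 4 measured alpha-specific genes were called higher, with a median difference of 2.46, and none of their arrays overlapped. MF(ALPHA)2, the minor gene of the alpha-factor pheromone, read 12.49, 12.29 and 11.95 in the 0.68 strain and 7.73, 7.73 and 7.96 in the null strain, a 21.7-fold difference (4.44 ± 0.13 on the log2 scale, SE, adjusted p 9.3e-11). SAG1, the alpha-agglutinin of the cell surface, read 12.38, 12.06 and 12.17 in the 0.68 strain and 9.47, 9.65 and 9.49 in the null strain (difference 2.67). The wild-type mean was 12.71 for MF(ALPHA)2 and 12.49 for SAG1, so the null strain lay the farther below it. MF(ALPHA)2 was also called lower than wild-type at 0.68, by 0.47 (limma adjusted p 0.032). STE3, the receptor for a-factor, read 9.70, 9.49 and 9.88 in the 0.68 strain and 7.45, 7.42 and 7.41 in the null strain (difference 2.26, adjusted p 3.7e-07). MF(ALPHA)1, the major pheromone gene, read 14.46, 14.49 and 14.46 in the 0.68 strain and 13.62, 13.70 and 13.78 in the null strain. Its difference of 0.77 comes from the top of the signal range and was not ranked against those of the other genes.

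The a-specific genes, which MATα cells keep off, were set beside the alpha-specific ones. Of 7 measured, limma called none higher (none also at an unadjusted p under 0.05) and 2 lower at 0.68 (3 unadjusted). BAR1, the protease that destroys alpha-factor, averaged 6.32 ± 0.03 in the 0.68 strain and 6.88 ± 0.19 without GCN5 (SD, 3 arrays each, limma adjusted p 0.0066). ASG7 fell by 0.51, but its call was lost when 0.68 replicate 1 or 3 or any null array was left out (adjusted p up to 0.092). STE2, the alpha-factor receptor, read 6.83 to 7.02 at 0.68 and 6.87 to 7.00 in the null strain. The mean level of the list was 6.79 to 7.09 in the 0.68 arrays and 7.11 to 7.26 in the null arrays. For the alpha-specific list it was 12.08 to 12.26 and 9.57 to 9.66. Signals of different probe sets are not on one scale, and both strains were MATα. These levels therefore do not check the mating type.

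The pheromone response genes followed the alpha-specific set. Of 33 measured, limma called 18 higher at 0.68 and none lower (23 and 1 at an unadjusted p under 0.05), beside 9.6% of all genes called higher, and the median difference was 0.44. FAR1, which arrests the cell cycle after pheromone, read 9.15, 8.80 and 8.81 in the 0.68 strain and 5.53, 5.60 and 5.54 in the null strain, a 10.3-fold difference. The FAR1 arrays of the null strain lay just above the background of 5.18. FUS1, needed for cell fusion, read 9.24, 9.41 and 9.13 in the 0.68 strain and 6.80, 6.97 and 6.85 in the null strain (difference 2.39). SST2, the regulator that ends G protein signalling, averaged 8.74 ± 0.37 in the 0.68 strain and 6.67 ± 0.15 without GCN5 (SD, 3 arrays each). Along the pathway the rise reached AGA1, the anchor of a-agglutinin (difference 1.88), the alpha subunit of the G protein GPA1 (1.62), the beta subunit STE4 (0.57), the scaffold STE5 (0.51), the kinase FUS3 (1.10) and the transcription factor STE12 (0.44). STE18, the gamma subunit, overlapped between strains with a difference of 0.04. Without 0.68 replicate 1 the list held 16 called genes, and a fit on the 6 arrays alone called 14, in each case none lower. Against wild-type, 26 of the 33 genes were called lower in the null strain and 7 at 0.68. FAR1 was in both sets (-0.44 at 0.68 and -3.80 in the null strain). In the null strain 2 of the 33 were called higher than wild-type, and at 0.68 none was. These counts are to be read beside all 5449 genes, of which 1229 were called lower than wild-type in the null strain and 384 at 0.68. AFB1, which codes for a secreted barrier to a-factor, stood outside the list and was higher by 2.25.

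**Figure D2:**
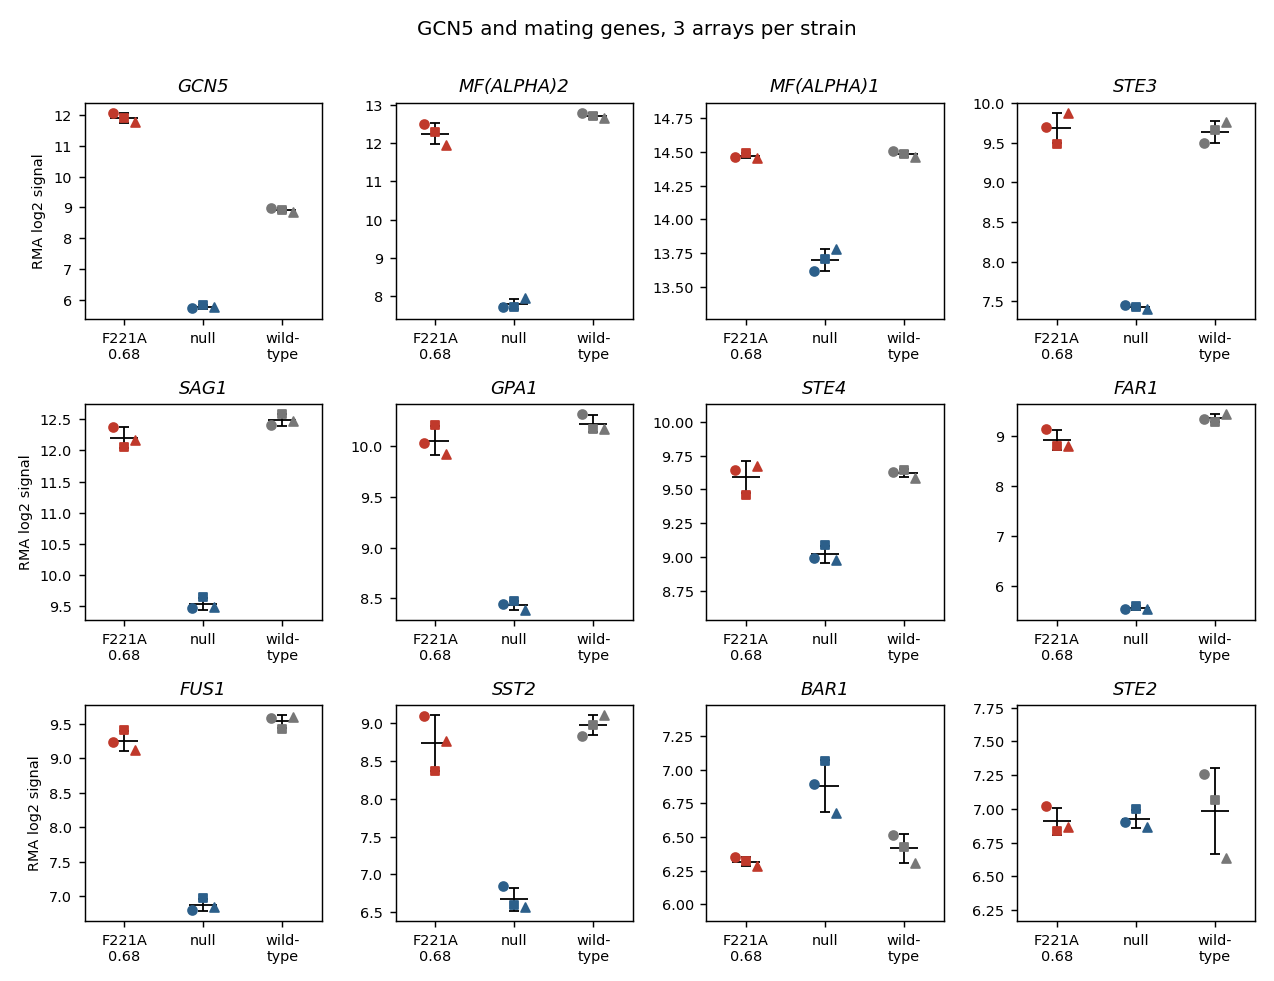
RMA log2 signal (vertical axis, each panel with its own range) of GCN5 and 11 mating genes on the 3 arrays of gcn5-F221A 0.68, gcn5 null and wild-type, with circle, square and triangle for replicates 1, 2 and 3 and the bar for mean ± SD. In the panels from MF(ALPHA)2 to SST2 every 0.68 array lies above every null array, and BAR1 lies below.

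The ranking of all genes placed further named genes beside these. Among the 15 largest rises were SRD1 (2.37), FMP46, the ammonium permease MEP1 and the uridine permease FUI1, and HO, the mating-type endonuclease inactive in this strain, came just after them at 1.95 with 10.64, 10.55 and 10.57 in the 0.68 strain and 8.61, 8.82 and 8.48 in the null strain. FMP46 read 10.22, 11.52 and 11.03 in the 0.68 strain and 8.41, 8.82 and 8.78 in the null strain. YDR222W, which has no gene name, was higher by 2.87, and YGR109W-A by 3.45. The probe set of YGR109W-A is of a type that matches several transcripts, so its signal may not belong to that gene alone. The largest fall was YCR099C, also without a gene name, at 6.44, 6.49 and 6.74 in the 0.68 strain and 9.18, 9.30 and 9.13 in the null strain (difference -2.65, adjusted p 8.1e-09). The 0.68 arrays of YCR099C lay near its wild-type mean of 6.30.

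**Figure D3:**
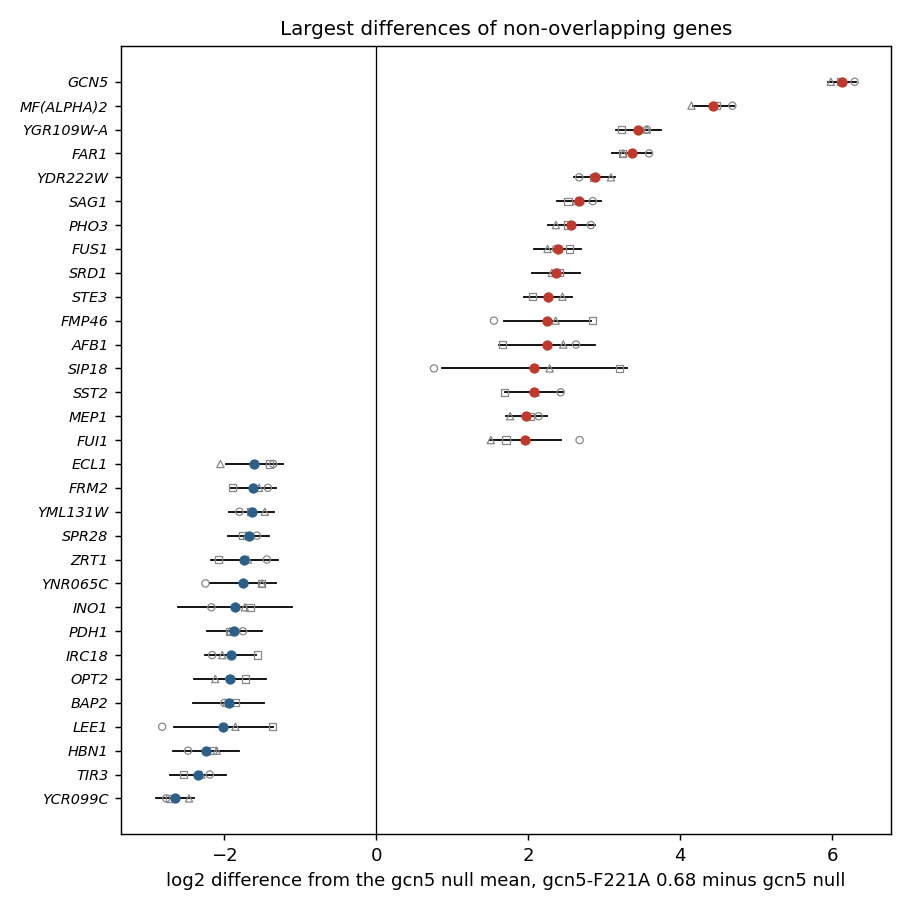
Log2 difference, gcn5-F221A 0.68 minus gcn5 null, of GCN5 and of the 15 genes that rose and the 15 that fell farthest, all called and with arrays that did not overlap; filled points are fitted differences, lines their 95% intervals, and open circles, squares and triangles the 3 arrays of 0.68 minus the null mean. SIP18 and LEE1 spread widest over the 0.68 arrays.

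Phosphate genes split. Of 23 measured members of the phosphate regulon, 8 were called higher at 0.68 (34.8%, beside 9.6% of all genes) and 3 lower (13%, beside 6.57%). The median difference was 0.08, and 0.05 to 0.13 without 1 array of either strain. PHO3, a constitutive acid phosphatase, read 8.14, 7.83 and 7.68 in the 0.68 strain and 5.52, 5.26 and 5.16 in the null strain (difference 2.57). Its null arrays straddled the background. PHO84, the high-affinity phosphate transporter, read 7.81, 7.96 and 7.76 in the 0.68 strain and 6.30, 6.19 and 5.68 in the null strain, a 3.44-fold difference. SPL2, which damps low-affinity uptake, was 2.02-fold higher, at 7.31 ± 0.28 in the 0.68 strain and 6.30 ± 0.21 without GCN5 (SD, 3 arrays each, limma adjusted p 0.0046). For PHO84 and SPL2 both strains were far below wild-type, whose means were 10.38 and 9.67, with the null strain the farther. PHO11, a repressible acid phosphatase, overlapped between the strains, at 8.0, 8.07 and 7.97 in the 0.68 strain and 7.82, 8.03 and 7.96 in the null strain, with a wild-type mean of 9.45. The interval of its difference was -0.13 to 0.29. Its probe set is of a type that matches several transcripts. The lower genes were the phosphodiesterase GDE1 (difference -0.75), the sodium-phosphate cotransporter PHO89 (-0.67) and the glycerophosphoinositol transporter GIT1 (-0.44), the last below background in both strains. The counts of this list stayed at 8 or 9 higher and 3 lower whichever array was left out.

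Nitrogen and amino acid genes moved in both directions. In the nitrogen catabolite list 8 of 25 genes were called higher at 0.68 (32%, beside 9.6% of all genes) and 1 lower, with a median difference of 0.13, which was 0.06 without 0.68 replicate 2. MEP1 read 10.75, 10.64 and 10.37 in the 0.68 strain and 8.60, 8.66 and 8.57 in the null strain (difference 1.98, adjusted p 3.7e-07). GDH3, a glutamate dehydrogenase, was 2.86-fold higher, and the allantoicase DAL2 was 1.97-fold higher. CAR1, the arginase, was the lower one, by 0.85. Leaving out 0.68 replicate 2 or any null array left 5 genes called higher. Among 23 amino acid permeases, 6 were called higher (26.1%) and 2 lower (8.7%, beside 6.57% of all genes). Their median difference was 0.23, but 0.10 without 0.68 replicate 2 and 0.11 without 0.68 replicate 3. BAP2, a branched-chain permease, read 5.72, 5.86 and 5.74 in the 0.68 strain and 7.97, 8.02 and 7.17 in the null strain, a 3.85-fold fall. TAT2, the tryptophan permease, averaged 7.31 in the 0.68 strain and 6.24 in the null strain (difference 1.07, adjusted p 3.9e-06). Its relative BAP3 rose unevenly, with 5.70 in 0.68 replicate 1 and 6.78 and 7.15 in replicates 2 and 3, against 5.06, 5.21 and 5.02 in the null strain, where it was at background. Of 64 amino acid biosynthesis genes, 3 were called higher (4.69%, below the 9.6% of all genes) and 8 lower (12.5%). The median difference was -0.08, and -0.14 without 0.68 replicate 1. Leaving out any wild-type array, 0.95 replicate 2, 0.68 replicate 2 or any null array left 1 to 5 lower, and 0 were higher without null replicate 2. Without 0.32 replicate 2 or 3, 0.95 replicate 1 or 0.68 replicate 1 or 3, 10 to 12 were lower. HIS3, an enzyme of histidine synthesis, read 13.09, 13.01 and 13.31 in the 0.68 strain and 12.91, 12.98 and 12.76 in the null strain. Its arrays did not overlap, but the difference of 0.26 was within the error of the fit (adjusted p 0.52).

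Metal uptake genes also rose and fell. ZRT1, the high-affinity zinc transporter, read 10.36, 9.72 and 10.11 in the 0.68 strain and 12.06, 11.73 and 11.61 in the null strain, a 3.33-fold fall, adjusted p 8.4e-05. Wild-type, at 11.08 on average, lay between, and ZRT1 was called against it in each strain, down by 1.01 at 0.68 and up by 0.72 in the null strain. IZH4, a membrane protein of zinc homeostasis, ran the other way, at 8.31, 7.91 and 8.10 in the 0.68 strain and 6.34, 6.01 and 6.26 in the null strain. FET4, the low-affinity iron transporter, was 3.04-fold higher. Of 16 zinc regulon genes 4 were called higher and 2 lower, with a median difference of 0.02 that lay between -0.01 and 0.12 without 1 array of either strain. Of 29 genes for iron and copper uptake, 8 were called higher (27.6%, beside 9.6% of all genes) and 4 lower (13.8%, beside 6.57%), with a median difference of 0.28. FET3, the multicopper oxidase of high-affinity iron uptake, read 12.08, 12.20 and 12.12 in the 0.68 strain and 11.35, 11.27 and 11.25 in the null strain. Its partner FTR1 was higher by 0.84 and its vacuolar homologue FET5 by 1.06. FIT2, a cell wall mannoprotein that holds siderophore iron, was 2.40-fold lower, with 0.68 replicate 1 lowest at 9.54. Its call was lost without null replicate 1 (adjusted p 0.058).

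Nucleoside genes were higher where they were called. Of 17 genes for pyrimidine synthesis and uridine uptake, limma called 6 higher at 0.68 and none lower (7 and none at an unadjusted p under 0.05), beside 9.6% of all genes called higher, with a median difference of 0.34. FUI1 read 11.23, 10.26 and 10.06 in the 0.68 strain and 8.46, 8.60 and 8.60 in the null strain, a 3.90-fold difference, and FUR4, the uracil permease, was higher by 0.66. AAH1, adenine deaminase, averaged 11.11 ± 0.72 in the 0.68 strain and 9.61 ± 0.16 without GCN5 (SD, 3 arrays each), adjusted p 0.0017 in limma. In FUI1 and AAH1 replicate 1 of the 0.68 strain was the highest, and without it the differences were 1.61 and 1.09, both still called. The pyrimidine list had 5 called genes without that array, with a median difference of 0.14. It had 3 without null replicate 1 or null replicate 3, and the median was 0.22 without the second of these.

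Cell wall genes were mostly lower where they were called. Of 34 measured mannoproteins and wall enzymes, 11 were called lower at 0.68 and 4 higher, beside 6.57% of all genes called lower, with a median difference of -0.20. TIR3, an anaerobic wall mannoprotein, read 7.48, 7.13 and 7.36 in the 0.68 strain and 9.96, 9.61 and 9.44 in the null strain, a 5.08-fold fall. The yapsin protease YPS3 fell by 1.44 and the flocculin FLO1 by 1.01. TIP1, a cold-shock mannoprotein of the same family as TIR3, ran against them, at 12.95, 12.25 and 12.91 in the 0.68 strain and 10.85, 10.82 and 10.65 in the null strain. CWP1 was 3.28-fold higher on average but uneven, with 11.83, 10.70 and 12.30 in the 0.68 strain. Without 0.68 replicate 1 the list held 9 lower and 5 higher genes. Of the higher ones, 2 were called without 0.68 replicate 3, null replicate 1 or null replicate 2. Of the other large falls, HBN1 and FRM2, which code for nitroreductase-like proteins, were both far down. HBN1 read 9.53, 9.85 and 9.90 in the 0.68 strain and 12.03, 12.10 and 11.89 in the null strain, and FRM2 averaged 6.18 in the 0.68 strain and 7.80 in the null strain. OYE3, a flavin oxidoreductase, was 2.12-fold lower. LEE1 (difference -2.01), IRC18 (-1.92), the oligopeptide transporter OPT2 (-1.93) and ECL1 (-1.60) were also among the 15 largest falls.

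Carbon metabolism was lower at 0.68 at a few steps. HXK2, the main hexokinase in glucose, read 12.38, 12.21 and 12.46 in the 0.68 strain and 13.26, 13.26 and 13.19 in the null strain, a 1.85-fold fall (adjusted p 5.4e-05). Of 23 glycolysis and fermentation genes it was called lower together with PFK1 and PFK2, the subunits of phosphofructokinase, and limma called none higher (1 higher and 6 lower at an unadjusted p under 0.05). PFK1 and PFK2 lost their calls without null replicate 2 (adjusted p 0.073 and 0.060), which left 1, and PFK1 also without 0.68 replicate 1 or 2 or null replicate 1 (up to 0.093). In the tricarboxylic acid cycle 5 of 21 genes were called lower (23.8%, beside 6.57% of all genes) and 3 higher (14.3%, beside 9.6%). The median difference of -0.13 was -0.03 without 0.68 replicate 1, -0.07 without replicate 2 and -0.21 without replicate 3. The lower genes included both subunits of the NAD-linked isocitrate dehydrogenase. IDH2 read 11.47, 11.76 and 11.94 in the 0.68 strain and 12.74, 12.85 and 12.48 in the null strain, and IDH1 averaged 10.89 in the 0.68 strain and 11.75 in the null strain. ACO1, aconitase, fell by 0.75 and SDH1, the flavoprotein of succinate dehydrogenase, by 0.65. PDH1, a mitochondrial gene for propionate use, was 3.65-fold lower, at 6.53, 6.35 and 6.36 in the 0.68 strain and 8.53, 8.51 and 7.80 in the null strain. Of 22 hexose transporters and glucose sensors, 4 were called lower (18.2%) and 2 higher (9.09%), with a median difference of -0.13. HXT9 fell by 1.38 and HXT2 by 0.84. HXT5 was one of the higher ones, at 7.60, 8.61 and 8.19 in the 0.68 strain and 7.10, 7.09 and 6.96 in the null strain (difference 1.09, adjusted p 0.021), and its call was lost without 0.68 replicate 2 or any null array (adjusted p up to 0.076). The count called higher was 1 without 0.68 replicate 2 or null replicate 2 and 0 by limma without null replicate 1 or 3.

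Lipid genes included INO1, inositol-phosphate synthase, which read 6.93, 7.44 and 7.37 in the 0.68 strain and 9.20, 9.09 and 9.02 in the null strain, a 3.62-fold fall (adjusted p 0.0028). It was the one lower gene of 25 in fatty acid and phospholipid synthesis, of which 5 were higher, with a median difference of 0.07 (0.01 without 0.68 replicate 1 and 0.13 without null replicate 1). FAA4, a fatty acyl-CoA synthetase, was 2.72-fold higher, and 3 were called higher without null replicate 3. The 24 ergosterol genes moved both ways, with 4 called higher (16.7%, beside 9.6% of all genes) and 2 lower (8.33%, beside 6.57%). Their median difference was 0.02, and 3 were called higher without 0.68 replicate 3 or any null array. ERG9, squalene synthase, was among the higher ones, at 10.48, 10.50 and 10.58 in the 0.68 strain and 9.70, 9.63 and 9.64 in the null strain. In thiamine synthesis, THI13 (difference -1.42) and THI4 (-0.62) were among 3 lower genes of 16, beside 3 higher, and 1 was called higher without 0.68 replicate 1 or 2 or any null array. The THI13 probe set is of a type that matches several transcripts.

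Meiosis genes, at low signal, were called in both directions. Of 47 measured meiosis and sporulation genes 6 were called higher (12.8%, beside 9.6% of all genes) and 9 lower (19.1%, beside 6.57%), with a median difference of 0.21, which was 0.12 without 0.68 replicate 1. SPS4 (difference 1.37) and SPO22 (1.35), both meiotic genes, were higher, and the null arrays of SPO22 were below background at 4.78, 4.72 and 4.52. SPR28, a septin of spore formation, read 3.74, 3.55 and 3.61 in the 0.68 strain and 5.13, 5.56 and 5.25 in the null strain, so the 0.68 arrays were below the background of 5.18 and the size of the fall is not resolved. Of 17 cyclins 5 were called higher, with PCL9 at 9.46, 9.20 and 9.40 in the 0.68 strain and 8.53, 8.36 and 8.29 in the null strain, and PCL5 was called lower. Leaving out 0.68 replicate 3 or any null array left 3 cyclins higher, and the PCL5 call was lost when any of 11 arrays was left out (adjusted p up to 0.17).

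**Figure D4:**
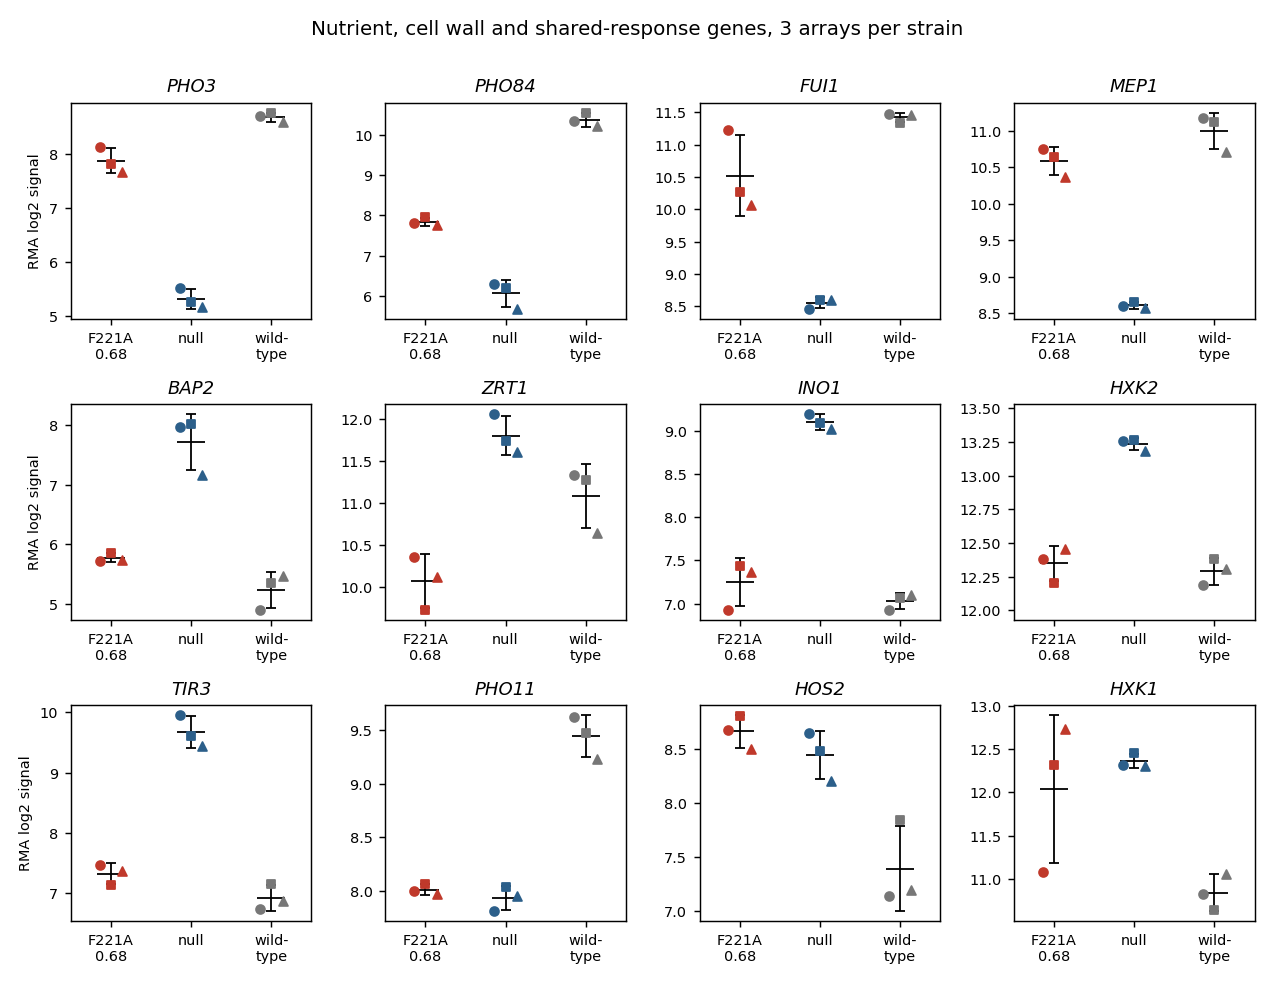
RMA log2 signal (vertical axis, each panel with its own range) of 12 nutrient, cell wall and shared-response genes on the 3 arrays of gcn5-F221A 0.68, gcn5 null and wild-type, with circle, square and triangle for replicates 1, 2 and 3 and the bar for mean ± SD. PHO3, PHO84, FUI1 and MEP1 are higher and BAP2, ZRT1, INO1, HXK2 and TIR3 lower at 0.68 than in the null strain, while the means of both lie on the same side of wild-type for PHO11, HOS2 and HXK1.

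Growth and stress genes split the gcn5-F221A 0.68 cultures. Over 151 ribosome biogenesis genes, the factors that make and process ribosomal RNA, the mean level was 11.19, 10.49 and 10.43 in 0.68 replicates 1, 2 and 3, against 10.45, 10.41 and 10.46 in the null arrays and 11.08 to 11.17 in wild-type. Replicate 1 thus lay near the wild-type level and replicates 2 and 3 near that of the null strain. The test called 13 of these genes higher (8.61%, not above the 9.6% of all genes) and 1 lower, with a median difference of 0.27. Without replicate 1, 7 were called higher and the median difference was 0.03, whereas without 0.68 replicate 3, 58 were called higher and the median difference was 0.41. Leaving out null replicate 1, 2 or 3 left 3, 4 and 5. DBP2, an RNA helicase, was higher in every 0.68 array, at 12.80, 12.13 and 12.02, than in the null strain at 11.24, 11.05 and 11.32, and kept its call without any single array. NSR1, nucleolin, lost its call without replicate 1 (adjusted p 0.071) and without null replicate 1, 2 or 3. Subunits of RNA polymerases I and III repeated the pattern, with mean levels of 10.90, 10.37 and 10.35 in the 0.68 arrays and 10.36 to 10.37 in the null arrays. The 128 measured cytoplasmic ribosomal protein genes did not, with mean levels of 13.91 to 13.98 at 0.68 and 13.92 to 13.97 in the null strain, and none was called by limma (1 lower at an unadjusted p under 0.05).

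Targets of the stress factors Msn2 and Msn4 ran the opposite way. The mean level of 82 genes was 10.08, 10.84 and 10.97 in 0.68 replicates 1, 2 and 3, against 10.29, 10.37 and 10.38 in the null arrays and 9.96 to 10.16 in wild-type. Of them, 11 were called higher (13.4%, beside 9.6% of all genes) and 4 lower (4.88%, beside 6.57%), with a median difference of 0.22. Without replicate 1 the list held 29 higher and 2 lower genes and a median difference of 0.45. Without 0.68 replicate 2 it held 4 higher and 2 lower, without 0.68 replicate 3 it held 5 and 6 with a median difference of 0.09, and without null replicate 1, 2 or 3 it held 3, 4 and 7 higher and 1, 1 and 2 lower. SIP18, a desiccation protein, read 9.02, 11.46 and 10.54 in the 0.68 strain and 7.89, 8.24 and 8.66 in the null strain, and its call (difference 2.08, adjusted p 0.023) was lost without 0.68 replicate 2 or 3 or null replicate 1 or 2 (adjusted p up to 0.087). Glycogen and trehalose genes averaged 8.82, 9.41 and 9.65 in the 0.68 arrays and 9.25 to 9.30 in the null arrays. For sulfate assimilation and methionine genes the means were 10.70, 11.29 and 11.44 in the 0.68 arrays and 11.09, 11.09 and 10.87 in the null arrays, and the count called higher was 2 with all arrays, 9 without 0.68 replicate 1, 1 without 0.68 replicate 2 or null replicate 1, and 0 without 0.68 replicate 3 or null replicate 3. The cause of the split was not tested. Heat shock proteins and chaperones did not split, with mean levels of 12.49 to 12.50 at 0.68 and 12.61 to 12.65 in the null strain. Of 29 measured, limma called 6 lower and none higher (9 and none at an unadjusted p under 0.05), beside 6.57% of all genes called lower, HSP31 by 0.92 and AHA1, which stimulates Hsp90, by 0.42, and 2, 2 and 3 were called lower without null replicate 1, 2 or 3.

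**Figure D5:**
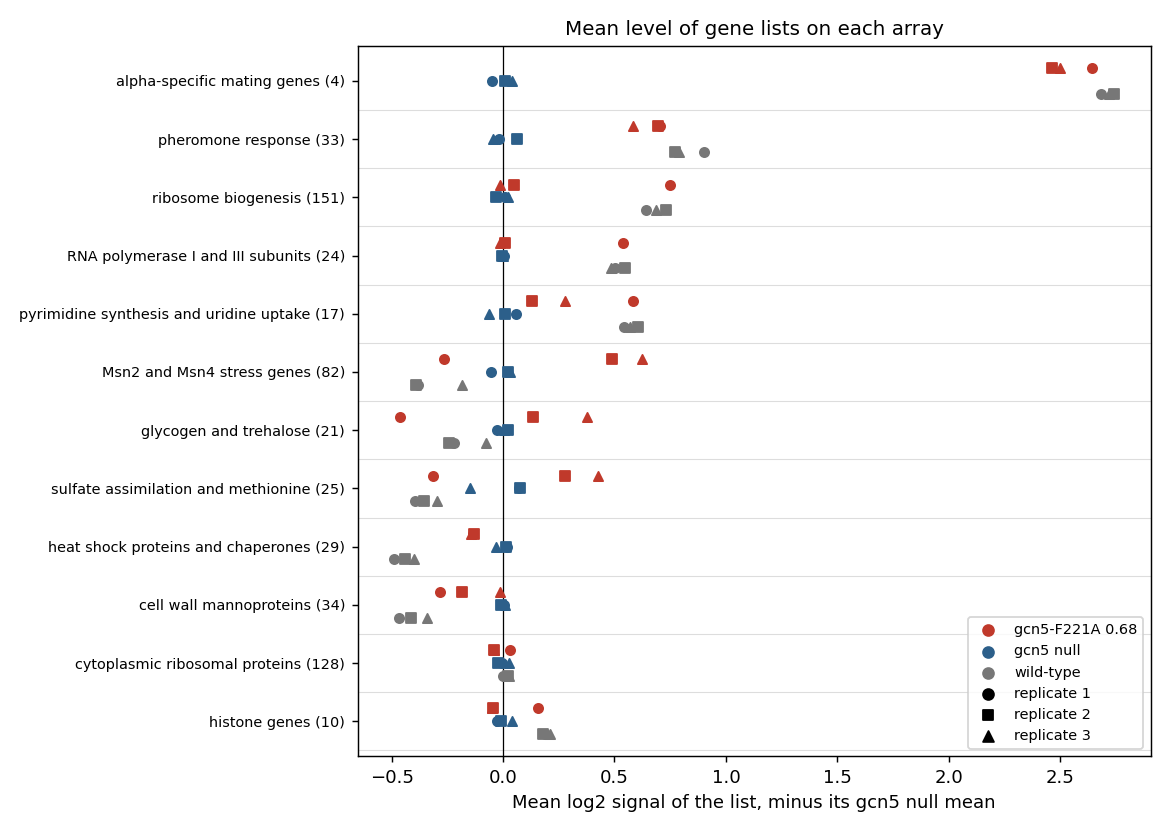
Mean log2 signal of 12 gene lists (number of measured genes in brackets) on each array of gcn5-F221A 0.68, gcn5 null and wild-type, minus the mean of the 3 null arrays, with circle, square and triangle for replicates 1, 2 and 3. The mating lists keep the 3 arrays of 0.68 together, whereas in ribosome biogenesis and Msn2 and Msn4 stress genes the circle of 0.68 lies with wild-type and away from the square and triangle.

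A total of 558 genes were called the same way against wild-type at 0.68 and in gcn5 null. For 519 of them, 205 up and 314 down, the 95% interval of the difference between the strains lay within 2-fold either way. That limit does not make them equal, since 80 of the 519 were called between the strains, 50 higher and 30 lower at 0.68. Both sides of this rule use the same wild-type arrays, and the number was fragile. It was 57, 189 and 259 without wild-type replicate 1, 2 or 3, 1027, 315 and 69 without 0.68 replicate 1, 2 or 3, and 333 without null replicate 2. HOS2, a histone deacetylase subunit, read 8.68, 8.81 and 8.51 in the 0.68 strain and 8.65, 8.48 and 8.21 in the null strain, with a wild-type mean of 7.40. ATG38, an autophagy factor, read 7.72, 7.77 and 8.08 in the 0.68 strain and 8.10, 7.86 and 7.58 in the null strain, with a wild-type mean of 6.70. The intervals of their differences were -0.16 to 0.60 and -0.42 to 0.44. ETR1, a mitochondrial enoyl reductase, was likewise above its wild-type mean of 9.34, at 10.22 ± 0.33 in the 0.68 strain and 10.26 ± 0.02 without GCN5 (SD, 3 arrays each). HXK1, the hexokinase that is repressed by glucose, averaged 12.04 in the 0.68 strain and 12.36 in the null strain, but its 0.68 arrays were 11.09, 12.31 and 12.73, with replicate 1 near the wild-type mean of 10.84.

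A few of these genes also differed between the strains with promoter strengths of 0.68 and 0.95, and the cause was not tested. Between 0.68 and 0.95, 272 genes (4.99%) were called, 137 higher and 135 lower at 0.68. GCN5 was lower by 1.23 at 0.68. The iron genes FET3 and FRE3, a ferric reductase, were higher at 0.68 by 0.76 and 0.77, and at 0.95 they lay 0.09 and 0.19 above the null strain, against 0.84 and 0.96 at 0.68. ZRT1 was 1.74 below the null strain at 0.68 and 2.55 below it at 0.95. MF(ALPHA)2 averaged 12.24 at 0.68 and 12.35 at 0.95 and was not called between them. Of the genes the study names for its arrays, IDH2, SPL2 and ZRT1 were called between 0.68 and the null strain, as given above. Not called were ATG38 (difference 0.01, limma adjusted p 0.98), RRT5 (0.74, 0.15) and the transketolase TKL2 (1.08, 0.26). ETR1 had nearly equal means in these strains, also given above. RRT5 read 6.43, 4.84 and 4.80 in the 0.68 strain and 4.56, 4.76 and 4.54 in the null strain. All but the first of these arrays were below the background of 5.18, and the difference was 0.20 without 0.68 replicate 1.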

How the data were processed

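The authors processed the array scans by RMA with Bioconductor's Affy package, and the deposited table holds log2 signals of 10928 probe sets on 15 Affymetrix Yeast 2.0 arrays. RMA sets all arrays to one distribution, so a change in total RNA cannot be seen. Versions are not given in the sources used here. Probe sets were named through the platform's gene table and RefSeq assembly R64, and the brightest probe set stood for each of the 47 genes with several. limma 3.58.1 in R 4.3.3 fitted a mean per strain over all 15 arrays with moderated variances. A check on simulated data came first. It gave each gene the same spread in every strain, so it does not cover the larger spread at 0.68. The contrast was gcn5-F221A 0.68 minus gcn5 null, p-values were adjusted by Benjamini-Hochberg over 5449 genes, and calls were made under 0.05. Replicates were 3 biological cultures per strain, and the number of arrays limits precision, with 95% intervals reaching 0.267 to each side for the median gene. No arrays were identical and none was left out. A change over 2-fold is a log2 difference above 1 or below -1. Background is the signal below which 95% of the 1746 S. pombe probe sets lay.

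Named genes are GCN5, the 15 genes highest and the 15 lowest relative to the null strain, called, above background and without overlap of arrays, up to 4 called members of each of 37 lists, genes that the study names, 8 genes alike in both strains and mating markers. HO, FUS3, STE12, GDE1, PHO89, GIT1, CAR1, FTR1, YPS3, FLO1 and the genes described only between promoter strengths were named after their values were seen. Lists and rules were chosen with earlier results of these data known. A list of Ty frames was not analysed here. Alternatives were the arrays in the fit, weights by strain or array, a trend with robust variance, all probe sets, the mean probe set, a filter on dim genes, median centring, quantile normalization, a 1.2-fold test, unadjusted p-values, a replicate block and leaving out each array.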

Additional observations from a re-analysis of the deposited data

Results flagged for a closer look

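The rule for samples that lie far from their group was not applicable, since each strain had 3 arrays. Named genes were looked at again where gcn5-F221A 0.68 and 0.95 differed in limma at an adjusted p under 0.05, both strains being set against the same null arrays. GCN5 was lower at 0.68 by 1.23 (log2 0.68 minus 0.95: -1.23). Genes higher at 0.68 than at 0.95 were YDR222W (0.78), YCR099C (0.53), ZRT1 (0.81), IZH4 (0.88), FET4 (0.94), FRE3 (0.77), FET3 (0.76), HXK2 (0.45), PFK2 (0.38), PFK1 (0.39), BAP3 (1.44), the urea transporter DUR3 (1.13), MET13 (0.70), PCL5 (1.16), MET28 (1.94) and YPS3 (0.85). Genes lower at 0.68 were FUI1 (-0.84), RRN7 (-0.54), AHA1 (-0.31) and the hexose transporter HXT5 (-1.33).

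DUR3 and FET3 were above the null strain at 0.68, by 1.08 and 0.84, and differed from it by -0.05 and 0.09 at 0.95. BAP3 averaged 5.10 in both gcn5-F221A 0.95 and gcn5 null, below the background of 5.18, so those strains cannot be compared in it. MET28, a regulator of sulfur genes, differed from the null strain by 0.18 at 0.68 and by -1.76 at 0.95, and its 0.68 arrays split, with 9.92 in replicate 1 and 11.74 and 11.94 in replicates 2 and 3. ZRT1, YCR099C, HXK2 and TIR3 were below the null strain at both strengths.

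Of 3517 probe sets with no gene name, which were not sorted by species, limma called 54. Among those above background in at least 1 strain mean, 5 were over 2-fold higher and 6 over 2-fold lower at 0.68 than in the null strain. Of 1746 S. pombe probe sets, which served as background and had no such limit on signal, 3 were called and 0 were over 2-fold.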

How the results depend on the processing

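The 881 calls (523 higher, 358 lower) fell to 482 (295 and 187) with only the 6 arrays of both strains, 224 (144 and 80) in a test against a 1.2-fold change, and 143 (95 and 48) at an unadjusted p under 0.05 with a 2-fold limit. Leaving out 1 array gave 565 to 1025 called, 335 to 600 higher, 206 to 425 lower and 122 to 156 over 2-fold. The share higher was 45.64% after median centring, 52.31% after quantile normalization, 64.29% in the 1.2-fold test, 66.43% in the unadjusted one and 56.49% to 64.40% without 1 array. The number alike against wild-type was 296 with a spread per strain, 998 with array weights, 323 with all probe sets tested and 57 to 1027 without 1 array. The causes were not tested, beyond the fewer arrays and the stricter thresholds. With a replicate block 793 genes were called (474 higher, 319 lower), 138 over 2-fold, with 397 alike. Deviations of same-numbered 0.68 and null arrays correlated at 0.327, 0.163 and -0.405, and 1 of 3 correlated best with its own number. With 3 arrays per strain, this cannot decide whether the numbers pair the arrays. Of the 142 called genes among 164 put through the alternatives, 56 kept their call in every one of the 27 that tested them. Without any single array 103 kept it, and none reversed. The filter on dim genes did not test genes below background in both strains. Low signal limits 201 genes that were below background in both strains.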

Other observations

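Of 66 mitochondrial ribosomal protein genes, limma called 3 higher and 0 lower at 0.68 (3 and 2 at an unadjusted p under 0.05) than in gcn5 null, below the 9.6% of all genes called higher, with 1 higher without null replicate 1 and 1 lower without 0.68 replicate 3. Of 29 translation factors 0 were called in either direction (1 higher and 0 lower unadjusted by limma), and of 34 proteasome genes 1 was called lower and 0 higher (2 and 1 unadjusted), with a median difference of -0.12 (-0.02 without 0.68 replicate 2 and -0.21 without replicate 3). Respiratory chain and ATP synthase genes gave 2 higher and 1 lower of 39, with 4 higher without 0.68 replicate 1, 1 higher without 0.68 replicate 2 or null replicate 1, and 3 lower without 0.68 replicate 3. Genes for gluconeogenesis, the glyoxylate cycle and acetate use gave 2 higher and 3 lower of 19, with a median difference of -0.21 (-0.13 without null replicate 2 or 3), and 0 higher without wild-type replicate 3, 0.68 replicate 3 or any null array in limma.

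Maltose and sucrose genes gave 1 higher and 3 lower of 9, with a median difference of -0.30, and 1 lower without null replicate 2. Seripauperin genes, a family of near-identical anaerobic wall proteins whose probe sets can be shared, gave 2 lower of 13 and 0 higher in limma (6 and 0 unadjusted), with a median difference of -0.29. Their lower count was 5 without 0.68 replicate 2 and 1 without 0.68 replicate 1, where the median was -0.17, or without any null array. Genes of purine synthesis and one-carbon metabolism gave 3 higher and 0 lower of 27 in limma (6 and 2 unadjusted), with 4 higher and 2 lower without 0.68 replicate 1 and 5 higher without 0.68 replicate 3. Peroxide and thiol defence genes gave 0 higher and 2 lower of 30 in limma (2 and 4 unadjusted), and 1 lower when any null or wild-type array, any 0.95 array or 0.68 replicate 3 was left out.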
